A study of Mus musculus with 15 samples.

Results

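The genes described here are 40 genes of the nuclear hormone receptor family, taken by their symbols. The rule uses no measured value, although the family was chosen with earlier results of these data known. A probe set was found for 39 of them; Nr1h2 was not analysed here. Where a gene had several probe sets, the brightest on average stood for it, and 27 of the 39 genes were bright enough to be tested, among 13083 genes tested in all. RNA came from germ cell cultures enriched in spermatogonial stem cells, set up from male C57BL/6 mice at 6 days of age, and each of 15 samples was measured on 1 Affymetrix array, 3 for each of 5 groups. In the maintained group the cultures stayed in a defined medium without serum that held GDNF, the soluble co-receptor GFRalpha1 and bFGF. In the withdrawal group GDNF and GFRalpha1 were taken away for 18 h. In the other 3 groups both factors were given back for 2, 4 or 8 h after the same withdrawal of 18 h. The labels give no group kept without the factors for more than 18 h, so an effect of giving the factors back cannot be told apart from an effect of handling or of added hours. They do not say whether the replicates were separate cultures, so p-values measure the spread between these arrays, which may be technical.

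Nuclear receptors are transcription factors with a DNA-binding domain and, in most members, a pocket for a small lipid-soluble ligand such as a steroid, a retinoid, thyroid hormone, an oxysterol or a fatty acid. Ligand binding swaps corepressors for coactivators on target genes, and members without a known natural ligand are called orphans and are often controlled through their own amount. In the testis, retinoic acid receptors drive spermatogonia towards differentiation, and steroid receptors act mainly in the somatic cells around them. GDNF, made by Sertoli cells, signals through RET and GFRalpha1 and keeps spermatogonial stem cells in self-renewal.

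Values are MAS5 signals, a linear brightness per probe set that the authors scaled to the same trimmed mean on each array. Differences are in log2(signal + 16), which understates changes of dim genes, and a difference was called at a Benjamini-Hochberg adjusted p under 0.05 over all 13083 genes. All 10 germ cell markers were over the brightness filter, with Ddx4 between 830.5 and 1410.1 and Dazl between 4111.5 and 7640.1 over the 15 arrays. Of 9 endothelial and blood cell markers 5 were over it, and none of these was called in any comparison. Outside the family, Id4, a marker of stem cells, fell by 1.82 on the log2 scale in withdrawal. Its mean signal was 362, against 1301 in maintained cultures (adjusted p = 1.56e-05). Of the 10 germ cell markers Id4 and Gfra1 fell on withdrawal and Zbtb16 rose, where 8.04% of all genes were called. The call of Gfra1 was lost with probe sets averaged or without maintained array 3. The median difference of the 10 was 0.04, beside 0.06 over all genes. The third withdrawal array stood apart in RNA quality: its ratio of 3' to 5' actin signal was 2.77, while the other 14 arrays lay between 1.1 and 1.75. Calls of receptor genes against withdrawal are therefore also given without it. Of the other called genes named below, Rec8 and Zbtb16 on withdrawal, Aldh1a1, Scd1, Abcg1 and Ddit4 at 4 h and Rec8 at 8 h missed the threshold without it, with adjusted p-values between 0.0526 and 0.0982. In bulk RNA, fewer cells of a type and less RNA per cell cannot be told apart.

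Between withdrawal and maintained cultures 4 receptor genes were called, and they were of different classes. Estrogen receptor alpha (Esr1), retinoic acid receptor alpha (Rara) and REV-ERB alpha (Nr1d1) rose, and the orphan Nr4a1 fell. These are 4 of the 27 genes, or 14.8%, and the share called among all genes tested was 8.04%. The other 23 genes missed the threshold, and 7 of the 27 had an unadjusted p under 0.05. How many of all genes had such a p is not given here. The median difference of the 27 genes was 0.04, beside 0.06 over all genes tested. The withdrawal and maintained arrays did not overlap for 6 of the 27 genes, where 26.8% of all genes did so.

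**Figure D1:**
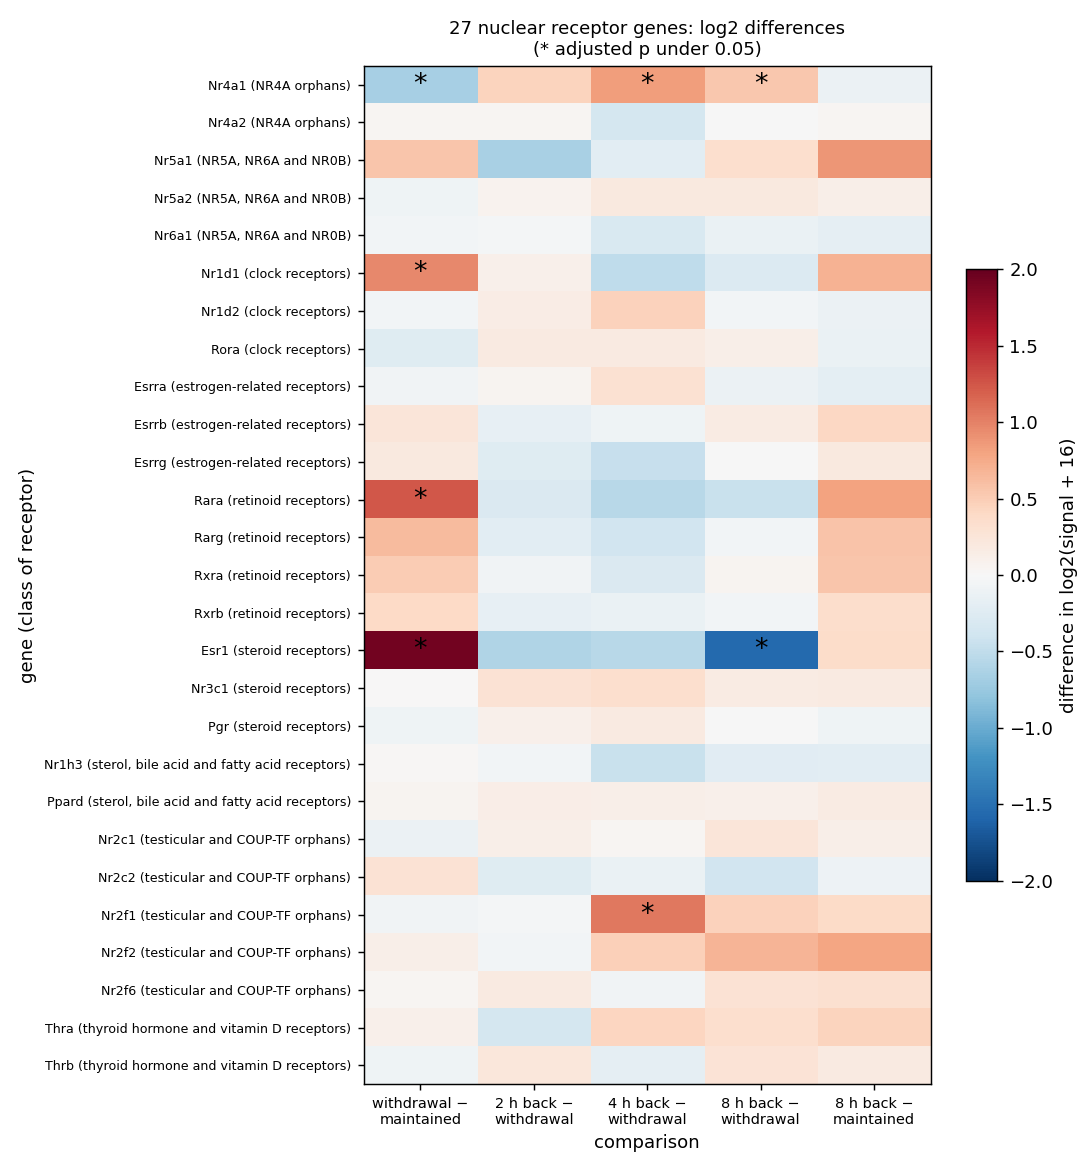
Differences in log2(signal + 16) for the 27 tested genes (rows, with their class) in 5 comparisons (columns), with the first-named group of each minus the second; red is higher, blue lower, and a star marks an adjusted p under 0.05. Stars stand at 4 genes for withdrawal against maintained cultures, at none for 2 h, at Nr4a1 and Nr2f1 for 4 h and at Nr4a1 and Esr1 for 8 h of replacement against withdrawal, and at none for 8 h against maintained cultures.

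Nr4a1 (Nur77) is an orphan receptor and an immediate early gene in many cell types, where growth factors and cyclic AMP induce it within an hour or so. It lies at chr15:101253902-101274795 (GRCm38.p6). Its signal was 242.3, 214.2 and 220.9 on the withdrawal arrays, against 388.0, 336.2 and 374.8 on the maintained arrays. Every withdrawal array was below every maintained array. The mean was 225.8 ± 14.7 in withdrawal and 366.3 ± 26.9 in maintained cultures (SD, n = 3 each), a log2 difference of -0.66 (SE 0.13, adjusted p = 0.00379). Without the third withdrawal array the difference was -0.65 (adjusted p = 0.0097).

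Signal of Nr4a1 was higher again in the arrays of replacement. After 2 h it was 301.2, 340.8 and 293.1, against the withdrawal values above. These 3 arrays were all above the withdrawal arrays, but the log2 difference of 0.44 missed the threshold (adjusted p = 0.35). After 4 h the signals were 425.4, 380.0 and 438.3, a log2 difference from withdrawal of 0.83 (SE 0.13, adjusted p = 0.00346), and after 8 h they were 293.5, 356.2 and 357.1, a difference of 0.54 (SE 0.13, adjusted p = 0.0302). Both groups lay above all 3 withdrawal arrays. Without the third withdrawal array the differences were 0.82 (adjusted p = 0.0053) and 0.52 (adjusted p = 0.0465). The call at 8 h was lost when any 1 of withdrawal arrays 1 and 2 or of 8 h arrays 2 and 3 was left out, with differences between 0.46 and 0.63 over all settings tried. Nr4a1 was the receptor gene whose call passed in 3 of the 5 planned comparisons.

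The 250 bases before the annotated start of Nr4a1 are shown because the gene moved in both directions over the time course. The sequence is from RefSeq (GRCm38.p6), chr15:101266596-101266845 on the plus strand, and lies inside the annotated span of the gene, which begins further upstream. The window of Esr1, at chr10:4611739-4611988 on the plus strand, is given beside it because Esr1 moved the other way. Capitals mark matches to any of 4 motifs searched on both strands: TGCGTCA, which holds the half-site of the cyclic AMP response element, the full element TGACGTCA, the EGR motif GCGGGGGCG and the nuclear receptor half-site AGGTCA.
Nr4a1: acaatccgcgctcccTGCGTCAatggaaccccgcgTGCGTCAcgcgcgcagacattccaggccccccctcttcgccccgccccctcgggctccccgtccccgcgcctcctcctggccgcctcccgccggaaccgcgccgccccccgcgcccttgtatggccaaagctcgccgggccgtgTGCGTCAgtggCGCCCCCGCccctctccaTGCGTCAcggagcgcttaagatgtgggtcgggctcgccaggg
Esr1: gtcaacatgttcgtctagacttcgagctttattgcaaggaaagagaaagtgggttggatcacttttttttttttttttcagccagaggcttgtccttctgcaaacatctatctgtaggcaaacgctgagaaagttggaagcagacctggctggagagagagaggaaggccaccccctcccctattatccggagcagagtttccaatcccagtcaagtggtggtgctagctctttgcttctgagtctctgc

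The Nr4a1 window held TGCGTCA 4 times, starting 235, 215, 71 and 42 bases before the start, and 1 GCGGGGGCG on the other strand at 60 bases, with no overlap between matches. TGCGTCA was chosen as a motif after the sequence had been read. Of 32851 windows of the same length in the RefSeq table, 1.75% held TGCGTCA at least once, and that of Nr4a1 was the only one with 4. The share with GCGGGGGCG was 2.57%, with TGACGTCA 1.55% and with AGGTCA 14%. The printed Esr1 window held none of the 4. Windows were found for 24 of the 27 tested genes (40 windows). Of these 40 windows TGCGTCA was in 1, that of Nr4a1, AGGTCA in 6, GCGGGGGCG in 3 and TGACGTCA in 0. A match describes letters and is no sign of binding.

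The other NR4A genes were dim and called in no comparison. Nr4a2 (Nurr1) lay between 14.4 and 52.8 on the 15 arrays, near the filter at a signal of 30.5. A further probe set of it, under the filter, averaged 38.9 ± 33.6 at 2 h and 27.9 ± 11.5 at 4 h, against 14.97 ± 10.6 in withdrawal (SD, n = 3 each). Nr4a3 (Nor1) was under the filter, with 23.3, 20.7 and 14.8 in withdrawal, against 27.2, 25.6 and 24.5 in maintained cultures. Those groups did not overlap, and without the filter the log2 difference of -0.24 was not called (adjusted p = 0.581).

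Among the steroid receptors, Esr1, the receptor that estradiol binds, lies at chr10:4611989-5005633. Its signal was 116.1, 121.5 and 116.6 on the withdrawal arrays, against 7.9, 20.7 and 34.3 on the maintained arrays. The withdrawal arrays were close together and far above all maintained arrays, of which 2 were below the filter signal. Esr1 rose on withdrawal, with a log2 difference of 1.92 (SE 0.29, adjusted p = 0.000701), and of 1.93 without the third withdrawal array. Its mean maintained level was below the filter signal, and the difference ran from 1.11 to 2.65 over the alternatives.

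Giving the factors back for 2 h gave Esr1 signals of 57.5, 98.2 and 67.3, and 4 h gave 92.6, 48.3 and 94.5. All 6 arrays were below the 3 withdrawal arrays, but neither difference was called (log2 differences -0.59, adjusted p = 0.638, and -0.55, adjusted p = 0.31). After 8 h the signals were 16.8, 36.7 and 39.1, of which 1 was within the maintained range and the other 2 were just above it, and Esr1 fell by 1.55 on the log2 scale relative to withdrawal (SE 0.29, adjusted p = 0.00955). Without the third withdrawal array the difference was -1.56 (adjusted p = 0.0202). The call was lost without the first 8 h array. The 8 h and maintained arrays overlapped (log2 difference 0.37, not called).

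The other probe sets of Esr1 did not all show this. A second one over the filter had 51.4 ± 6.60 in withdrawal and 35.1 ± 35.3 in maintained cultures (SD, n = 3 each), a log2 difference of 0.62 that was not called (adjusted p = 0.523 over all probe sets), and -0.00 for 8 h against withdrawal. The third, under the filter, averaged 25.9 in withdrawal and 4.77 in maintained cultures. With the probe sets averaged, Esr1 kept its call on withdrawal and lost the one at 8 h.

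**Figure D2:**
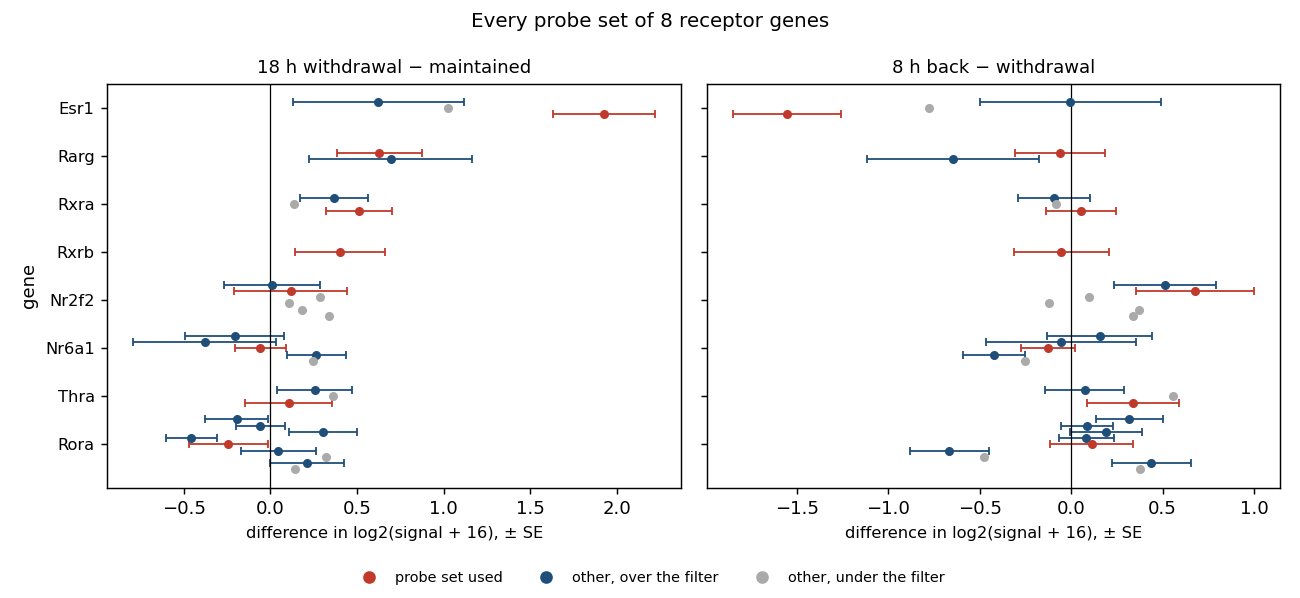
Differences in log2(signal + 16), ± SE, for every probe set of 8 receptor genes; red marks the probe set used, blue others over the filter, grey others under it (no SE). The left panel is withdrawal minus maintained cultures and the right panel is 8 h of replacement minus withdrawal; the 3 probe sets of Esr1 lie at 1.92, 0.62 and 1.02 on the left, and at -1.55, -0.00 and -0.78 on the right.

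The glucocorticoid receptor gene Nr3c1 lay between 119.6 and 248.1 and the progesterone receptor gene Pgr between 17.9 and 46.2; neither was called in any comparison. The estrogen receptor beta gene Esr2 and the mineralocorticoid receptor gene Nr3c2 were under the filter. Of 9 tested estrogen receptor targets, Pgr among them, 1 changed on withdrawal, where 8.04% of all genes were called. Xbp1, a regulator of secretory capacity, fell by 0.89 on the log2 scale (mean 766 in withdrawal and 1431 in maintained cultures, adjusted p = 0.00107). It was higher at 8 h of replacement than in withdrawal by 0.65 (adjusted p = 0.0222), a call lost without any 1 of the 3 arrays of 8 h or of withdrawal arrays 1 and 2.

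All 4 tested retinoid receptor genes had a difference above 0 on withdrawal, as had 57.2% of all genes, and 1 of the 4 was called, where 8.04% of all genes were. Rara, the main retinoic acid receptor of Sertoli cells and also found in germ cells, lies at chr11:98927800-98974942. Its signal was 148.7, 93.1 and 104.1 on the withdrawal arrays, against 71.0, 31.4 and 23.0 on the maintained arrays. The groups did not overlap, although the first array was the highest in both. The log2 difference was 1.25 (SE 0.31, adjusted p = 0.0218), or 2.38-fold, and 1.30 without the third withdrawal array (adjusted p = 0.0463). The call was lost without maintained array 2 or 3 or without withdrawal array 1, and the difference was 0.78 to 1.59 over the alternatives. Beside Esr1 and Rara, the summed signal of 11 Sertoli markers was 743 to 881 in withdrawal, against 626 to 716 in maintained cultures. None of the 9 markers over the filter was called on withdrawal. The sum was 473 to 824 at 2 h, 700 to 890 at 4 h and 861 to 1022 at 8 h of replacement. At 8 h Esr1 was at 16.8 to 39.1 and Rara at 75.3 to 82.4. The part of Sertoli cells in the values of Esr1 and Rara was not tested.

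Rara was not called in any comparison of replacement with withdrawal. Its signals were 123.6, 88.5 and 65.7 at 2 h, 130.1, 51.8 and 53.0 at 4 h, and 82.4, 79.7 and 75.3 at 8 h. The 8 h arrays were above all maintained arrays and below all withdrawal arrays, and the log2 difference from maintained cultures, 0.81, was not called (adjusted p = 0.215).

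Retinoic acid receptor gamma (Rarg), the form tied to the step from undifferentiated to differentiating spermatogonia, had 242.3, 229.9 and 174.3 in withdrawal, against 171.6, 151.6 and 88.5 in maintained cultures. The groups did not overlap, by a small margin, and the log2 difference of 0.63 was not called (adjusted p = 0.114). Rxra, the partner with which retinoic acid receptors bind DNA, had 232.5, 243.9 and 326.0 in withdrawal and 203.3, 175.9 and 166.3 in maintained cultures, a difference of 0.51 that was not called (adjusted p = 0.101). Rxrb lay between 130.2 and 377.9, with its highest value on the third withdrawal array, and was not called; its difference on withdrawal was 0.40 with that array and 0.05 without it. Rarb and Rxrg were under the filter.

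Genes that supply and clear retinoic acid were also read, 9 of them tested. On withdrawal 1 fell and none rose, where 8.04% of all genes were called. The median difference was -0.39, beside 0.06 over all genes. Rdh11, a retinal reductase, fell by 1.38 on the log2 scale (mean 87.1 in withdrawal and 248 in maintained cultures, adjusted p = 0.00179). Aldh1a1, an enzyme that makes retinoic acid, was higher than in withdrawal by 0.94 at 4 h and by 1.04 at 8 h (adjusted p = 0.0373 and 0.0214), and Crabp2, which carries retinoic acid to its receptor, fell by 0.84 at 8 h (adjusted p = 0.00856). Of 8 tested genes of the retinoic acid response in the germ line, 2 rose on withdrawal, where 8.04% of all genes were called. Sohlh1, a factor of spermatogonial differentiation, rose by 1.37 (277 in withdrawal and 94.0 in maintained cultures, adjusted p = 0.000969). At 8 h of replacement it was still 1.00 above maintained cultures (mean 204, adjusted p = 0.0495), a call lost in 14 of 26 alternatives. Rec8, a meiotic cohesin, rose by 1.63 (107 and 25.0, adjusted p = 0.0119). The call of Rec8 was lost without the third withdrawal array or without maintained array 2. Rec8 fell by 1.66 at 8 h relative to withdrawal (adjusted p = 0.0244), and the median difference of these 8 genes on withdrawal was 0.02. The calls of Aldh1a1, Crabp2 and Rec8 on replacement were each lost when 1 of several arrays was left out, that of Crabp2 with the first 8 h array alone (log2 differences -0.94 to -0.75 over the alternatives).

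**Figure D3:**
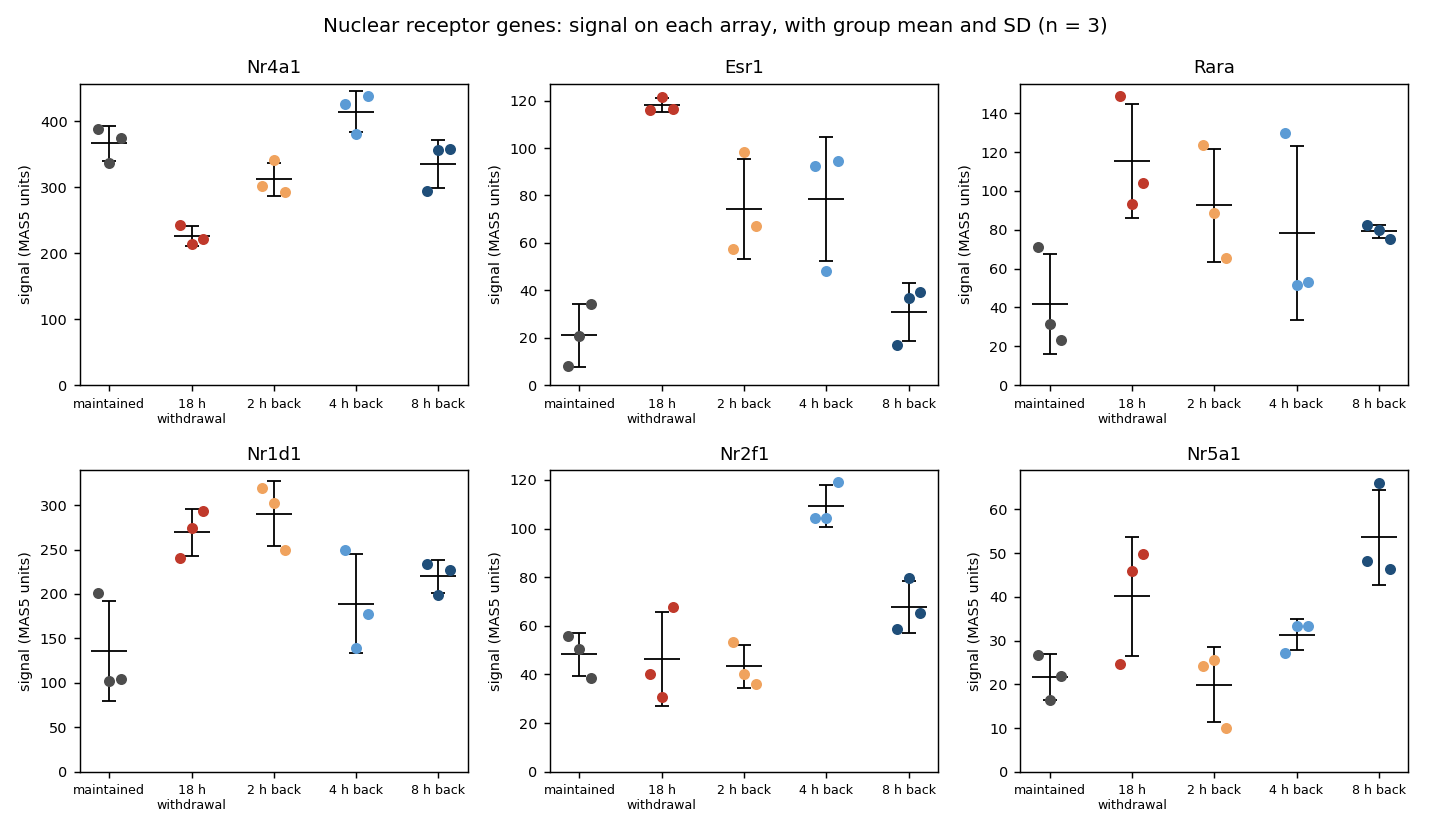
MAS5 signal (vertical axis, from 0) of 6 receptor genes on each of the 15 arrays, by group in order of time (horizontal axis); points are arrays, and bars give the mean and SD of 3 arrays. Nr4a1 is lowest in withdrawal (214.2 to 242.3), Esr1 highest there (116.1 to 121.5), and Nr2f1 highest at 4 h of replacement (104.2 to 119.3); Nr5a1 was called in no comparison.

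Among the receptors of the circadian clock, Nr1d1, a repressor of Bmal1 whose own transcription the clock drives, lies at chr11:98767932-98775377. Its signal was 240.5, 274.5 and 292.9 on the withdrawal arrays, against 201.2, 101.6 and 104.7 on the maintained arrays. All withdrawal arrays were above all maintained arrays, of which the first was the highest. The log2 difference was 0.97 (SE 0.22, adjusted p = 0.0121), or 1.95-fold, and 0.91 without the third withdrawal array (adjusted p = 0.0419). The call was lost without maintained array 2 or 3.

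Nr1d1 stayed at 319.5, 301.8 and 249.6 after 2 h of replacement, and was 249.3, 139.7 and 178.0 after 4 h and 234.1, 198.3 and 227.0 after 8 h. The 2 h arrays lay in and above the withdrawal range, and the 8 h arrays below it. The log2 difference from withdrawal was -0.51 at 4 h (adjusted p = 0.212), and no comparison with withdrawal was called. At 8 h the difference from maintained cultures was 0.69 (adjusted p = 0.136), and it was called (1 of 27 genes) when maintained array 1 was left out. For that fit the share of all genes called is not given here. The end of Nr1d1 overlaps that of the thyroid hormone receptor gene Thra, on the opposite strand, over 1075 bases (chr11:98767932-98769006), and where the probes lie was not analysed here.

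Its paralog Nr1d2 did not move with it: signals were 939.6, 939.9 and 499.5 in withdrawal, against 793.4, 723.1 and 869.8 in maintained cultures. The third withdrawal array was the lowest of the 15, and Nr1d2 was called neither with nor without it. Rora, an activator at the same DNA sites, lay between 67.8 and 156.9 and was not called. Of 7 tested clock targets of these receptors 1 changed on withdrawal, where 8.04% of all genes were called. Bhlhe40, a repressor in the clock, fell by 2.17 on the log2 scale (97.4 in withdrawal and 490 in maintained cultures, adjusted p = 1.89e-06). It was higher than in withdrawal by 1.95 at 4 h and 1.62 at 8 h (adjusted p = 1.4e-05 and 0.000137).

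In the comparisons with withdrawal, the receptor genes called were 0 of 27 at 2 h, 2 of 27 at 4 h and 2 of 27 at 8 h. The shares called among all genes tested were 0.115%, 2.64% and 2.39%, and 2 of 27 genes is 7.41%. At 4 h Nr4a1 and Nr2f1 rose; at 8 h Nr4a1 rose and Esr1 fell. By limma's unadjusted p under 0.05 the counts were 2, 5 and 4, and the shares of all genes at that unadjusted p are not given here. Arrays did not overlap for 5, 6 and 6 of the 27 genes, where 14.6%, 21.4% and 21.5% of all genes did not.

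Nr2f1 (COUP-TFI) is an orphan receptor and mostly a repressor, known from neural and mesenchymal development, at chr13:78188971-78198873. Its signal was 104.2, 104.5 and 119.3 at 4 h of replacement, against 40.4, 30.8 and 67.8 in withdrawal. The 4 h arrays were above all other arrays of the series. The log2 difference was 1.05 (SE 0.22, adjusted p = 0.0216), or 2.07-fold, and 1.28 without the third withdrawal array, which was the highest of its group (adjusted p = 0.0053). The call was lost without withdrawal array 1 or 2, or without 4 h array 2 or 3.

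At the other times Nr2f1 was lower. It had 53.3, 40.4 and 36.2 at 2 h and 58.6, 79.5 and 65.1 at 8 h, against 55.8, 50.5 and 38.4 in maintained cultures. The 2 h values lay within the range of withdrawal, and the 8 h values were between the maintained and the 4 h values. Between 4 h and 2 h the log2 difference was 1.09 (SE 0.22, adjusted p = 0.0155), a comparison added after the data were seen. It was the 1 receptor gene of 27 called in that comparison, where 1.94% of all genes were called. None of the 27 was called for 8 h against 2 h (1.85% of all genes) or for 8 h against 4 h (0%). There limma's unadjusted p was under 0.05 for 5 and 7 of the 27 genes, and the shares of all genes at that p are not given here.

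Nr2f2 (COUP-TFII), expressed in the testis in interstitial cells, had 168.9, 246.4 and 180.8 at 8 h, against 62.9, 115.5 and 208.7 in withdrawal and 148.6, 80.1 and 99.9 in maintained cultures. The 8 h and withdrawal arrays overlapped because of the third withdrawal array. The log2 difference at 8 h from withdrawal was 0.68 (adjusted p = 0.311), and 1.06 without that array (adjusted p = 0.0638).

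Markers of fibroblasts were also higher at 4 h and 8 h. The summed signal of 15 fibroblast markers was 16239 to 19406 at 4 h and 15985 to 19559 at 8 h, against 8982 to 14045 in withdrawal, and it was 5782 to 10119 at 2 h and 9313 to 12484 in maintained cultures. Within withdrawal, its highest value was on the third array, as for Nr2f1 and Nr2f2. Of the 14 markers over the filter 4 rose at 4 h against withdrawal, where 2.64% of all genes were called. The median difference of the 14 was 0.87, beside -0.05 over all genes. Among those that rose were Col3a1 by 1.19 and Twist1 by 1.10. At 8 h against withdrawal 5 rose, where 2.39% of all genes were called, and the median was 0.59 beside 0.01. Leaving out single arrays could remove the call of Col3a1 at 4 h but not that of Twist1. Twist1 was also the 1 marker called on withdrawal, where 8.04% of all genes were called and the median difference of the 14 was 0.05. It fell there by 0.84 (mean 112 in withdrawal and 209 in maintained cultures, adjusted p = 0.00546), and its mean at 4 h was 253. No marker was at 0, and Lum alone was under the filter. The part of the fibroblast signal in the values of Nr2f1 and Nr2f2 was not tested.

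**Figure D4:**
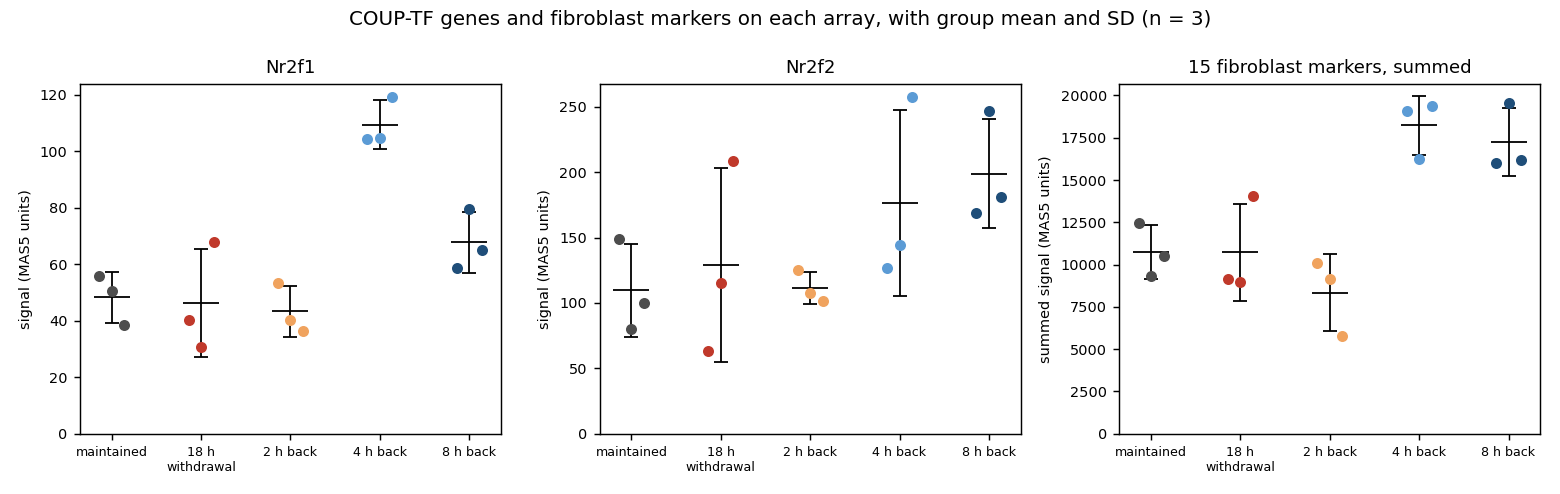
MAS5 signal of Nr2f1 and Nr2f2 and the summed signal of 15 fibroblast markers (vertical axes, from 0) on each array, by group in order of time; bars give the mean and SD of 3 arrays. Nr2f1 at 4 h and the summed markers at 4 h and 8 h lie above all arrays of the maintained, withdrawal and 2 h groups, Nr2f2 overlaps between groups, and in withdrawal the third array is the highest in each panel.

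The testicular orphan receptors Nr2c1 (TR2) and Nr2c2 (TR4), repressors first found in testis, lay between 77.4 and 145.2 and between 212.5 and 350.3. Nr2f6 (EAR2), of the COUP-TF group, lay between 449.7 and 800.7. None was called in any comparison.

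Steroidogenic factor 1 (Nr5a1), which drives steroid synthesis in Leydig cells and acts in Sertoli cells, was dim. It had 48.3, 66.1 and 46.3 at 8 h of replacement, against 26.8, 16.4 and 21.9 in maintained cultures. These groups did not overlap, but the log2 difference of 0.88 was not called (adjusted p = 0.114). Withdrawal gave 24.6, 45.9 and 49.9, a wide spread, with a difference of 0.55 from maintained cultures (adjusted p = 0.207). Beside it, Cyp11a1, which starts steroid synthesis and is a target of Nr5a1, was 1.30 higher on the log2 scale at 8 h than in withdrawal and 1.41 higher than in maintained cultures (adjusted p = 0.0223 and 0.0342), both calls lost without any 1 of the 8 h arrays. The summed signal of 8 Leydig and peritubular markers was 594 to 790 at 8 h, against 453 to 509 in maintained cultures, while Cyp17a1, Hsd3b1, Myh11, Cnn1 and Tagln were under the filter. That of 11 Sertoli markers was 861 to 1022 at 8 h, against 626 to 716 in maintained cultures, with Amh and Cldn11 under the filter. The part of these cells in the values of Nr5a1 was not tested.

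Nr5a2 (LRH-1), a factor of pluripotent cells and liver, lay between 177.8 and 262.6, and Nr6a1 (GCNF), which shuts off pluripotency genes and is expressed in germ cells, between 91.5 and 167.1. Neither was called. A second probe set of Nr6a1 averaged 96.2 ± 11.6 at 4 h and 168 ± 35.6 in withdrawal (SD, n = 3 each), a log2 difference of -0.70 that missed the threshold over all probe sets (adjusted p = 0.0635).

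The thyroid hormone receptor gene Thra depended on 1 array. It had 246.6, 212.2 and 280.7 at 4 h and 213.6, 235.1 and 236.7 at 8 h, against 129.5, 129.1 and 324.3 in withdrawal. The third withdrawal array was the highest of all 15, and with it neither difference was called. Without it, Thra was higher than in withdrawal by 0.85 at 4 h (adjusted p = 0.00843) and by 0.75 at 8 h (adjusted p = 0.0161). That made 3 of the 27 receptor genes called at each time, and the share of all genes called in that fit is not given here. The maintained arrays, at 184.4, 162.1 and 145.8, lay above the first and second withdrawal arrays. Thrb, between 63.5 and 163.4, was not called, and of 5 tested genes of thyroid hormone response and metabolism none was called in any comparison of groups.

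The estrogen-related receptors, orphans that drive mitochondrial genes, were called in no comparison. Esrra lay between 48.8 and 94.6, Esrrb, which belongs to the network of pluripotent cells, between 68.1 and 157.2, and Esrrg between 52.6 and 103.6. None of 8 tested target genes of energy metabolism, Esrra itself among them, was called. Their median on withdrawal was -0.17, beside 0.06 over all genes.

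Among receptors for sterols and fatty acids, the liver X receptor gene Nr1h3 lay between 18.0 and 72.9 and the fatty acid receptor gene Ppard between 74.8 and 142.3, and neither was called. Of 10 tested genes that liver X receptors control, Nr1h3 itself among them, 2 rose and 2 fell on withdrawal, where 8.04% of all genes were called. The median difference of the 10 was -0.02, beside 0.06 over all genes. Abcg1, a cholesterol exporter, rose by 0.81 on the log2 scale (477 in withdrawal and 264 in maintained cultures, adjusted p = 0.000901). Abca1, an exporter of the same kind, rose by 0.49, a call lost in 14 of 26 alternatives. Scd1 and Scd2, which desaturate fatty acids and are also under SREBP control, fell by 1.05 and fell by 0.65 (adjusted p = 0.00113 and 0.00704), the call of Scd2 being lost with probe sets averaged. At 4 h of replacement Scd1 and Scd2 were higher than in withdrawal by 0.74 and 0.62, and Abcg1 fell by 0.57 (adjusted p = 0.0319, 0.0235 and 0.0302), calls that leaving out single arrays could remove.

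Of 9 tested PPAR targets 1 rose on withdrawal, where 8.04% of all genes were called. Hadha, an enzyme of mitochondrial fatty acid oxidation, rose by 1.05 (1309 in withdrawal and 628 in maintained cultures, adjusted p = 0.00158). Of 11 tested glucocorticoid receptor targets 2 rose on withdrawal, where 8.04% of all genes were called. Ddit4, an inhibitor of mTORC1 that many stresses also induce, rose by 1.24 (2915 in withdrawal and 1193 in maintained cultures, adjusted p = 0.00207) and fell by 0.89 at 4 h and fell by 1.61 at 8 h relative to withdrawal (adjusted p = 0.0384 and 0.00104). Its call at 4 h was lost in 11 alternatives, among them leaving out withdrawal array 2 or 3. Zbtb16 (PLZF), also a marker of undifferentiated spermatogonia, rose by 0.77 (adjusted p = 0.0261), a call lost without the third withdrawal array or without any 1 maintained array.

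Of 21 tested coactivators and corepressors, 2 rose on withdrawal and none fell, where 8.04% of all genes were called. The Mediator subunit Med24 rose by 0.62 and Tbl1x, a subunit of the NCoR complex, by 0.43 (adjusted p = 0.0348 and 0.0279). The coactivator gene Ncoa3 fell by 0.55 at 4 h relative to withdrawal (adjusted p = 0.0229). Each of these 3 calls was lost in 6 or 7 alternatives, including leaving out single arrays. None of 3 tested receptors of the superfamily outside the 40 genes was called.

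After 8 h of replacement none of the 27 receptor genes differed from maintained cultures at the threshold, where 0.482% of all genes did. By limma's unadjusted p under 0.05 the count was 7, and the share of all genes at that unadjusted p is not given here. The differences were above 0 for 19 genes and below 0 for 8, where 58.6% of all genes were above 0. The median was 0.18, beside 0.06 over all genes. Arrays did not overlap for 8 of 27 genes, where 26.6% of all genes did not.

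Over the 5 groups together, limma's moderated F-test called 4 of the 27 genes, where 6.68% of all genes were called. They were Esr1 (adjusted p = 0.00242), Nr4a1 (0.00461), Nr2f1 (0.0162) and Nr1d1 (0.0243). Rara was not called by this test (adjusted p = 0.102). The withdrawal arrays enter all 3 comparisons with replacement and the one with maintained cultures, so those comparisons are not independent of each other.

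The 12 genes under the filter were Esr2, Rarb, Rxrg, Nr1h4, Nr3c2, Nr4a3, Ppara, Pparg, Vdr, Rorb, Nr0b1 and Nr0b2. Their single signals lay between 1.2 and 91.9 and their group means between 2.2 and 47.6. For Pparg and Nr0b1 every array was under the filter signal, and the other 10 had single arrays above it. Nr0b1 (DAX1), a corepressor-like partner of Nr5a1, had 16.8, 16 and 24.6 in withdrawal, against 2.2, 2.3 and 2.1 in maintained cultures. All 6 values lie below the filter signal, where MAS5 values say little of amount. Without the filter it was the 1 of the 12 that passed the threshold on withdrawal (log2 difference 0.94, adjusted p = 0.038). The share of all genes called in that fit is not given here.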

How the data were processed

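RNA of 15 samples in 5 groups of 3 was measured on 1-colour Affymetrix arrays. The deposited values are linear intensities, 1 per probe set and array; the authors made them with MAS5, per the submitters' processing notes, whose version is not given in the sources used here. Trimmed means (2% off each side) were equal between arrays, and median signals were 42.5 to 55.8, so no further scaling was applied. Of 45101 probe sets, 34958 had 1 gene symbol, 932 several and 9211 none in the platform annotation. Control probe sets and the dimmest 40% (mean under a signal of 30.5) were left out, and 1 probe set stood for each gene. The 27 tested members had 84 probe sets. Differences in log2(signal + 16) were tested in limma 3.58.1 (R 4.3.3; lmFit, eBayes with a trend) over all 15 arrays, with 10 residual degrees of freedom and Benjamini-Hochberg adjustment over 13083 genes; the median SE of a difference was 0.19. An exact permutation test of 3 arrays against 3 cannot go below p = 0.1 and was not used. The fit was tested on simulated data. Members, gene lists and markers were chosen with earlier results of these data known. Members called in a comparison are given by array and others by range; of each gene list, called genes with the largest differences, up to 4, are named. Correlations of log2 values between arrays were 0.935 to 0.974, and no 2 arrays were identical. Alternatives were another added constant, other filters, the mean of probe sets, quantile and median scaling, fits of the compared groups alone, no trend, array weights, a replicate block and leaving out each array. Promoter windows came from RefSeq (GRCm38.p6).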

Additional observations from a re-analysis of the deposited data

Results flagged for a closer look

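Nr2f1 differed between times of replacement: its log2(signal + 16) was 1.09 higher at 4 h than at 2 h (SE 0.22, limma adjusted p = 0.0155; means 109 ± 8.63 and 43.3 ± 8.91, SD, n = 3 each), in a comparison added after the data were seen. All 3 arrays of 4 h were above all 3 of 2 h. The summed fibroblast signal was also higher at 4 h (16239 to 19406) than at 2 h (5782 to 10119). In that comparison 1.94% of all genes were called, and 9 of the 14 fibroblast markers tested rose. Their part in the difference was not tested.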

How the results depend on the processing

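Counts of receptor genes called were recomputed under 26 alternatives. The share of all genes called under each alternative is not given here, so a changed count cannot be told apart from a change over all genes. No called difference changed sign. With the dimmest 60% of probe sets left out, 20 members were tested and the counts were 1 at 4 h and 1 at 8 h against withdrawal, and 2 in the F-test. Averaging the probe sets of a gene, or shifting arrays to 1 median, gave 1 at 8 h against withdrawal. Fitting only the groups compared gave 2 on withdrawal (Esr1 and Nr4a1), 0 at 4 h and 1 at 8 h, with fewer degrees of freedom. Array weights gave 4 at 4 h and 5 at 8 h against withdrawal, 5 at 8 h against maintained cultures and 9 in the F-test; the cause was not tested. Leaving out 1 array at a time gave 2 to 5 on withdrawal, 0 at 2 h, 1 to 3 at 4 h, 1 to 3 at 8 h against withdrawal, 0 to 1 at 8 h against maintained cultures and 3 to 5 in the F-test. Replicate numbers are shared by all groups, but same-numbered arrays deviated together over a correlation of 0.1 in 7 of 30 pairs, fewer than every pair, so the numbers were not taken as pairs. Still, 11 of 15 arrays correlated best with an array of their own number, a hint in the data of a shared effect. With the replicate block the counts were 4, 0, 2, 2 and 0 in the order above and 5 in the F-test, which added Rara. Esr1 and Nr4a1 kept their calls on withdrawal under every alternative that tested them (log2 differences 1.11 to 2.65 and -0.75 to -0.57). Of 52 called gene results, list genes included, 14 kept their call under every alternative; on replacement these were Bhlhe40 at both times and Ddit4 at 8 h. Signals under the filter, such as those of Esr1 on 2 maintained arrays, limit what a difference says of amount.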
